A study of Mus musculus with 13 samples.

Results

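The translation initiation factor genes were taken as every row of the expression table whose symbol starts with Eif and a digit, which gave 52 of the 11761 listed genes, and all 52 were among the 11643 genes tested. They were measured in adipocyte RNA from the epididymal white fat of Adipoq-NuTRAP mice on a C57BL/6J background. In NuTRAP animals a Cre recombinase driven by the adiponectin gene Adipoq switches on a GFP-tagged ribosomal protein and a labelled nuclear envelope in adipocytes, and both diet groups carry these alleles. The chow group kept a standard chow diet and the HFD group ate a high-fat diet, both for 10 weeks, with 3 RNA libraries in each. Tagged ribosomes were pulled from homogenised fat through their GFP (TRAP, the affinity purification of translating ribosomes), so a value is the amount of a transcript in ribosome-bound RNA and not its translation rate. The sources used here give neither age or sex nor the composition of the high-fat diet.

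Initiation factors bring the small ribosomal subunit, the initiator tRNA and the mRNA together and select the start codon. The factor eIF2 delivers the initiator tRNA with GTP, the exchange factor eIF2B recharges it, and stress kinases block that exchange by phosphorylating the alpha subunit of eIF2. The eIF4 factors bind the cap and unwind the mRNA, and their cap-binding protein eIF4E is held in check by binding proteins that the nutrient-sensing kinase complex mTORC1 inactivates. In adipocytes, insulin and amino acids act on initiation through mTORC1.

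Values are CPM (read counts divided by an effective library size, not the plain read total), so they compare a gene between libraries and not genes with each other. The listed values summed to 1182120 CPM in chow replicate 3 and to between 984422 and 1030470 CPM in the other 5. Effective library size was 7430000 reads in chow replicate 3 and between 23200000 and 39400000 reads in the other 5. The lowest read number behind any initiation factor value was 19, for Eif5a2 in chow replicate 3. In chow replicate 3, 117 genes also sat at the table's floor, against 0 to 7 elsewhere. Whether each library is its own animal is not in the labels, and every p-value therefore reflects variation among libraries that may be technical. All 8 adipocyte markers checked were listed, with a summed level of 19419 to 31920 CPM in chow against 18294 to 20432 CPM in HFD, and 1 of them (Lep) was called higher and 3 (Adipoq, Plin1 and Cfd) lower. Lep rose from a mean of 1224 to 5497 CPM and so holds up the HFD sum. Every other adipocyte marker had a lower mean in HFD, with Pparg almost equal. Marker lists of other cells had higher summed levels in HFD: the 10 macrophage markers summed to 74.9 to 96.7 CPM in chow against 305 to 485 CPM in HFD, with 9 higher and 1 lower. The 8 endothelial markers summed to 22.5 to 64.2 against 127 to 232 CPM (7 higher), the 8 fibroblast and progenitor markers to 464 to 562 against 773 to 1242 CPM (3 higher, 1 lower), and the 6 listed of 7 smooth muscle and pericyte markers to 92.3 to 129 against 618 to 924 CPM (6 higher). In the fibroblast and progenitor list, Col1a1 rose from a mean of 155 to 799 CPM, while Dcn fell from 291 to 83.6 CPM. The summed rise of that list rests on Col1a1. The 5 mesothelial markers summed to 18.6 to 30.0 against 39.6 to 124 CPM (2 higher). The 2 listed erythroid genes summed to 1.10 to 2.85 against 2.00 to 6.11 CPM, with none called. Of 5 epididymis and sperm genes, 0 were listed. How transcripts of these cells came to be in the pulled-down RNA, and their part in the initiation factor results, was not tested. In RNA pooled over cells, a change in cell number and a change in RNA per cell cannot be told apart.

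HFD changed 10 initiation factor genes, 5 upward and 5 downward. Eif5a2 and Eif1a rose the most, followed by Eif2s1, Eif4e2 and Eif2ak3, while Eif4ebp2, Eif4h, Eif4a2, Eif4b and Eif3f fell. The 10 called genes are 19.2% of the 52, against 35.1% of all genes tested in either direction (limma, adjusted p under 0.05). By direction, 19.1% of all tested genes were called higher and 16% lower. Grouped by role, the called share ran from 0% (eIF2B) to 36.4% (cap binding and helicase). The 3 chow and 3 HFD values did not overlap for 21 of the 52, with HFD above chow in 10 and below in 11, a share of 40.4% against 50.2% of all tested genes (25.2% with HFD above and 25% with HFD below). Differences were small: the median absolute log2 difference was 0.19 for initiation factor genes and 0.37 for all tested genes, and 1 member (Eif5a2, 1.92% of the 52) against 15.4% of all genes differed by 1 or more in log2. The medians of the signed differences were 0.003 and -0.004, with 26 members above 0 and 26 below. Median standard errors were 0.15 and 0.18.

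The falls were kept or lost depending on which scaling was used. With equal totals 4 initiation factor genes were called lower, and with quantile normalization 5. With libraries scaled so that 28 listed adipocyte identity genes had the same median level, the median of all tested genes moved to 0.42, 14 initiation factor genes were called higher and 0 lower. The 14 were the 5 risen genes with Eif2s2, Eif2b1, Eif2ak4, Eif5, Eif3a, Eif3j2, Eif4g1, Eif4g3 and Eif4a1. The 5 fallen genes then kept negative log2 differences, from -0.31 to -0.03, that missed the threshold and stayed below that median. Of all genes called, 54.4% were higher as reported, 65.3% with equal totals, 46.4% with quantile normalization and 91.1% with identity gene scaling. The identity genes include Adipoq (log2 difference -0.60), Plin1 (-0.56) and Cfd (-3.07), themselves called lower in HFD as reported.

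**Figure D1:**
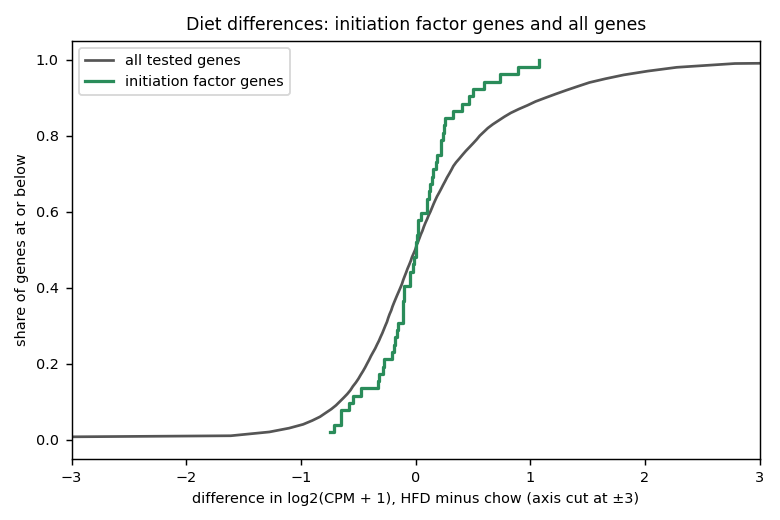
Cumulative share of genes (vertical axis) at or below a given difference in log2(CPM + 1), HFD minus chow (horizontal axis), for the 52 initiation factor genes and for all 11643 tested genes. Both curves cross 0 near their middle, and the initiation factor curve is the steeper, with values from -0.75 to 1.08.

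**Figure D2:**
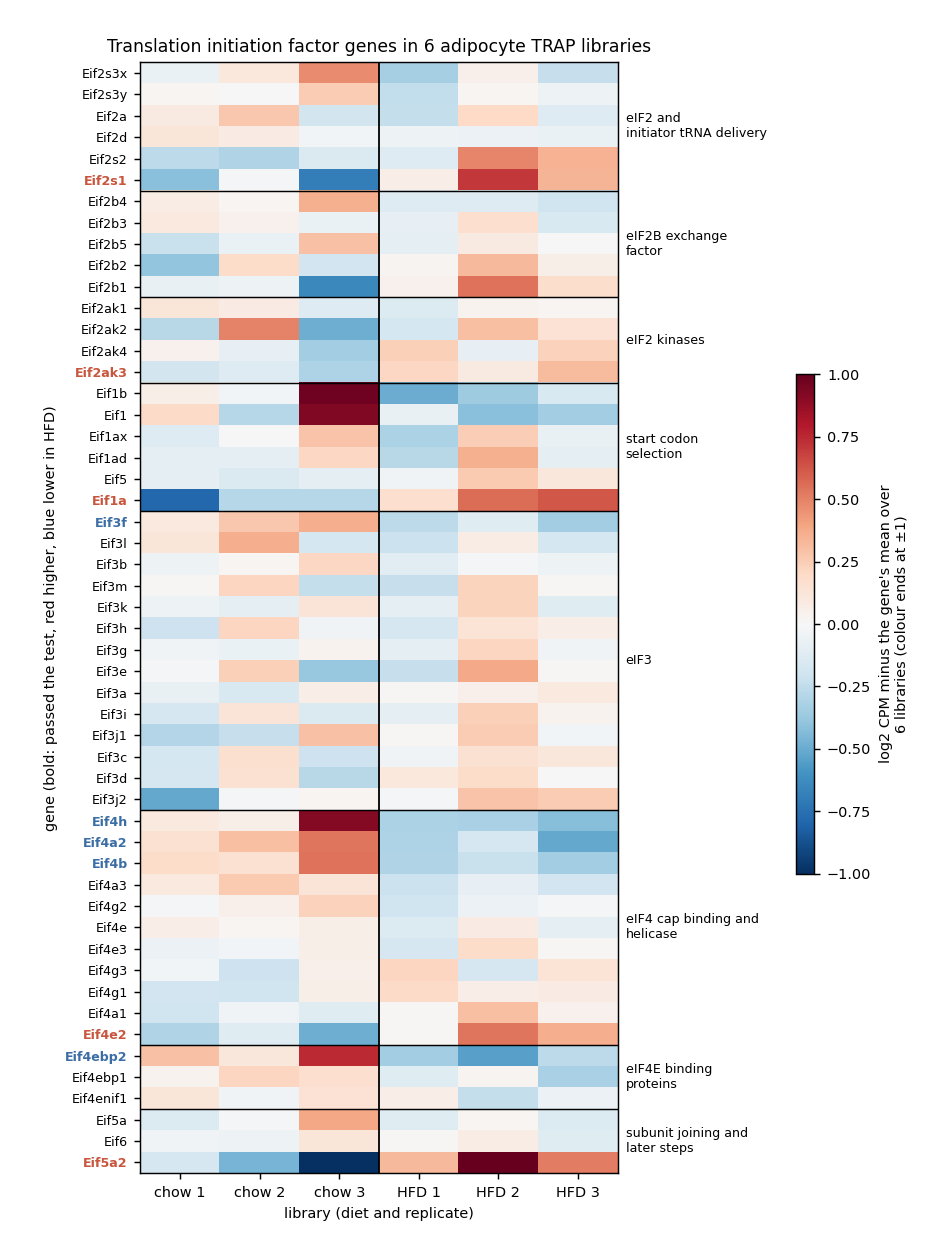
Level of each of the 52 genes (rows, grouped by role) in each library (columns), as log2 CPM minus the gene's mean over the 6 libraries, with colours ending at 1 on either side. Bold names mark the 5 genes called higher (red) and the 5 called lower (blue), and HFD replicate 2 is the highest HFD library in 38 rows.

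Libraries of one diet differed among themselves in a shared way. HFD replicate 2 was the highest of the 3 HFD libraries for 38 of the 52 genes and HFD replicate 1 the lowest for 32, while chow replicate 3 was the highest chow library for 28. The coefficient of variation within a diet ran from 1.83% (Eif4e) to 42.9% (Eif1) in chow and from 0.693% (Eif2d) to 27.8% (Eif5a2) in HFD, with medians of 13.1% and 11.4%.

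The promoter letters of called genes are shown where available, because these genes moved with diet and promoters can be compared with all others. RefSeq promoter sequence (build GRCm38.p6, the assembly mm10 denotes) was found for 42 of the 52 genes. Eif1a was not among the 42. In the 250 bases before the start, read on both strands, the E-box CACGTG lay in 9 of 42 promoters (21.4%, against 6.86% of 27025 genes), the GC box GGGCGG in 32 (76.2% against 35.4%), the ETS-family motif CCGGAAG in 12 (28.6% against 7.83%) and the cAMP response element core TGACGT in 9 (21.4% against 7.29%). No match of one motif overlapped a match of another. An E-box was found for 1 of 4 risen genes with a promoter (Eif5a2), 2 of 5 fallen genes (Eif3f and Eif4h) and 6 of 33 others. A GC box was found for 3 of 4, 4 of 5 and 25 of 33. A match is a description of the letters and not of binding. The 27025 genes go beyond the 11761 listed here, so the shares were not compared among expressed genes alone. A gene with more than 1 start counted as matched if any start matched. For Eif4e2, which has 3 starts, the letters printed are those before its outermost start. Letters of Eif4ebp2 (gene at chr10:61428491-61452790), Eif5a2 (chr3:28781032-28798846) and Eif2ak3 (chr6:70844484-70905241) are not printed, because the stretch before their start lies inside the gene's own span. The 100 bases before the start are chr16:23107368-23107467 (plus strand) for Eif4a2, chr15:102073673-102073772 (plus strand) for Eif4b, chr5:134639410-134639509 (minus strand) for Eif4h, chr7:108934315-108934414 (plus strand) for Eif3f, chr1:87213811-87213910 (plus strand) for Eif4e2 and chr12:78861972-78862071 (plus strand) for Eif2s1, with motif matches in capitals:
Eif4a2: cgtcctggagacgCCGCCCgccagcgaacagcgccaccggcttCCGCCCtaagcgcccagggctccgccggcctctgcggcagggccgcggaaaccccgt
Eif4b: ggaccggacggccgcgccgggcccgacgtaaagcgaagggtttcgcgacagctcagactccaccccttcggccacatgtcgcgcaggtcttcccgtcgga
Eif4h: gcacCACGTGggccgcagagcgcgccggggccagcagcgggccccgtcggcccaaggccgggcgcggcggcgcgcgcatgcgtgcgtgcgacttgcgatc
Eif3f: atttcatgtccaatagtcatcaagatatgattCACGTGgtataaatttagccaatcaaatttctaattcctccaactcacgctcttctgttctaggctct
Eif4e2: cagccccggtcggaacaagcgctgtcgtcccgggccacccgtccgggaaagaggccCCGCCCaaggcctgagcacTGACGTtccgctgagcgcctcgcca
Eif2s1: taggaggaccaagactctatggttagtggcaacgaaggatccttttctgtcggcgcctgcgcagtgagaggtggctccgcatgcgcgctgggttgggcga

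Many mRNAs of the translation machinery begin with a run of pyrimidines at the cap, the element through which mTORC1 controls their translation, so the letters around the start were read too. A run of at least 6 C or T over the start base lay in 4 of the 42 genes (9.52%, against 8.49% of 27025 genes), and 1 of these 4, Eif3f, was among the called genes. Such a run may lie partly before the start, outside the mRNA, and it rests on the annotated start. The count therefore does not measure how often the cap element itself occurs. The run in Eif2b5 is not printed, because it lies inside the gene's annotated span. For the other 3, the 30 bases hold 15 before the start and 15 from it, with the run in capitals, at chrX:94212637-94212666 (minus strand) for Eif2s3x, chr7:108934400-108934429 (plus strand) for Eif3f and chr15:79075208-79075237 (plus strand) for Eif3l:
Eif2s3x: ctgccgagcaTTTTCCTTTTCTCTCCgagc
Eif3f: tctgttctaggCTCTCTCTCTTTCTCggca
Eif3l: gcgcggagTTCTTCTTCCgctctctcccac

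Among the eIF2 subunits and tRNA delivery factors, the alpha subunit gene rose and none of the other 5 passed the test. Eif2s1, which encodes eIF2 alpha, the subunit the stress kinases phosphorylate, stood at 45.3, 60.1 and 37.5 CPM in chow against 63.6, 99 and 76.6 CPM in HFD. All HFD values were above all chow values, though the lowest HFD and highest chow values were close. The means were 47.6 ± 11.5 and 79.7 ± 17.9 CPM (SD, n = 3), a log2 difference of 0.73 (SE 0.21, limma adjusted p = 0.022). That call was lost without chow replicate 3 (adjusted p = 0.0684), HFD replicate 2 (0.0837) or HFD replicate 3 (0.0568). Eif2s2, the beta subunit, was at 41.6, 40.5 and 45.3 CPM in chow against 45.6, 70.0 and 63.6 CPM in HFD. Its diets did not overlap, but the log2 difference of 0.46 missed the threshold (adjusted p = 0.061) and passed it without HFD replicate 1 (0.64, adjusted p = 0.014), with equal totals (0.0313), with identity gene scaling (0.00853) and with array weights (0.0071). The gamma subunit has an X-linked and a Y-linked gene in mice. Eif2s3x was at 44.3, 49.9 and 64.4 CPM in chow against 37.0, 48.2 and 39.7 CPM in HFD (log2 difference -0.33, 95% interval -0.71 to 0.05). Eif2s3y was listed well above 0 in every library, at 95 to 113 CPM in chow against 79.9 to 95.7 CPM in HFD (log2 difference -0.18, interval -0.48 to 0.11). As a Y-linked gene, it marks RNA of males in every library. Values of both gamma genes overlapped between diets. Eif2a and Eif2d, alternative carriers of initiator tRNA, differed by -0.11 each, and the Eif2d values of 29.9 to 30.3 CPM in HFD lay just below the 30.7 to 34.1 CPM of chow.

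None of the 5 eIF2B subunit genes passed the test. An unadjusted limma p under 0.05 was found for 1 of these 5, for 14 of the 52 members and for 5304 of the 11643 genes tested. Eif2b1, the alpha subunit that senses phosphorylated eIF2, was at 32.2, 32.7 and 21.7 CPM in chow against 35.0, 49.5 and 38.3 CPM in HFD. The diets did not overlap, and the log2 difference was 0.50 (SE 0.20, limma adjusted p = 0.0775), which passed with identity gene scaling (0.0183). Eif2b4, the delta subunit, went the other way without overlap, from 24.1 to 30.3 CPM in chow to 20.7 to 21.7 CPM in HFD (log2 difference -0.29, adjusted p = 0.157). Eif2b5, the catalytic subunit, had means of 131 ± 24.5 and 130 ± 8.1 CPM (SD, n = 3), with an interval of the log2 difference from -0.34 to 0.33. Eif2b2 and Eif2b3 differed by 0.26 and -0.05.

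Of the 4 eIF2 kinase genes, 1 rose. Eif2ak3 encodes PERK, the kinase that responds to unfolded proteins in the endoplasmic reticulum. It was at 33.4, 34.5 and 30.5 CPM in chow against 43.7, 40.2 and 47.2 CPM in HFD. The 2 sets did not overlap, with means of 32.8 ± 2.08 and 43.7 ± 3.48 CPM (SD, n = 3), a log2 difference of 0.40 (SE 0.13, limma adjusted p = 0.0402). Leaving out any 1 of the 6 libraries ended that call (adjusted p from 0.0584 to 0.171). Eif2ak4, which encodes the amino acid sensor GCN2, had a log2 difference of 0.25 (interval -0.12 to 0.62). Eif2ak1, the heme-regulated kinase, differed by -0.05 (interval -0.34 to 0.24). Eif2ak2, the kinase activated by double-stranded RNA, ranged from 39.7 to 78.2 CPM within chow alone, and its difference of 0.18 has an interval from -0.36 to 0.72.

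Among the 6 genes of start codon selection, Eif1a passed the test, with the lowest adjusted p of the 52 genes. It encodes a form of eIF1A, the factor that helps the scanning ribosome open and settle on the start codon. It was at 107, 151 and 151 CPM in chow against 206, 271 and 282 CPM in HFD. Every HFD library was above every chow library, with means of 136 ± 25.6 and 253 ± 40.7 CPM (SD, n = 3), a log2 difference of 0.89 (SE 0.18, limma adjusted p = 0.00452). Eif1ax, the X-linked form of eIF1A, was at 75.6, 82.1 and 100 CPM in chow against 66.3, 97.7 and 78.2 CPM in HFD (log2 difference -0.10, interval -0.48 to 0.29). The 2 genes encode close relatives, and reads shared between them could be assigned to either. Eif1 and Eif1b encode eIF1, which keeps scanning stringent. Eif1b was at 38.3, 36.3 and 72.5 CPM in chow against 26.2, 28.8 and 33.1 CPM in HFD. Eif1 was at 65.3, 46.9 and 108 CPM in chow against 54.2, 42.8 and 44.9 CPM in HFD. In both genes chow replicate 3 stood far above the other chow libraries. Their log2 differences of -0.65 (limma adjusted p = 0.0661) and -0.55 (0.133) missed the threshold. Eif1b passed it without chow replicate 1 (adjusted p = 0.0427) or chow replicate 2 (0.0369), and Eif1 without chow replicate 2 (-0.83, adjusted p = 0.0224). Without chow replicate 3 the log2 differences shrank to -0.34 for Eif1b and -0.23 for Eif1. Eif5, which triggers GTP hydrolysis on eIF2, was at 315 to 329 CPM in chow against 340 to 419 CPM in HFD, without overlap (log2 difference 0.22, adjusted p = 0.191), and was called with quantile normalization (0.0483) and identity gene scaling (0.0153). Eif1ad, named for its eIF1A domain, differed by -0.01.

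Of the 14 eIF3 genes, which encode the large scaffold on the small ribosomal subunit, 1 passed the test. Eif3f fell from 63.6, 71.5 and 76.1 CPM in chow to 49.5, 54.6 and 46.5 CPM in HFD. The sets did not overlap, with means of 70.4 ± 6.35 and 50.2 ± 4.06 CPM (SD, n = 3), a log2 difference of -0.48 (SE 0.13, limma adjusted p = 0.0191). That call was lost without chow replicate 2 (adjusted p = 0.055), HFD replicate 1 (0.0529) or HFD replicate 3 (0.0906), and with equal totals (0.0566). The other 13 eIF3 genes all overlapped between diets, with log2 differences from -0.21 (Eif3l) to 0.33 (Eif3j2), and the median over all 14 was 0.08. The called share and the non-overlapping share of the 14 were each 7.14%, against 35.1% and 50.2% of all genes tested. These differences were not tested. Eif3a, the central scaffold subunit, was at 284 to 331 CPM in chow against 317 to 338 CPM in HFD (log2 difference 0.10, interval -0.16 to 0.37). Summed over the 14 genes, the level was 1379 ± 77.2 CPM in chow against 1398 ± 98.3 CPM in HFD (SD, n = 3).

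Among the 11 cap-binding and helicase genes, 3 fell, 1 rose and 7 did not pass, and 8 of the 11 had diets that did not overlap. The called share was 36.4%, near the 35.1% of all genes tested. The non-overlapping share was 72.7%, against 50.2% of all genes tested, and the difference was not tested. The 3 that fell belong to the unwinding step. Eif4a2, an ATP-driven RNA helicase, was at 440, 488 and 572 CPM in chow against 320, 352 and 278 CPM in HFD. Its means were 500 ± 67.0 and 317 ± 37.1 CPM (SD, n = 3), a log2 difference of -0.65 (SE 0.15, limma adjusted p = 0.00798). Eif4b, which stimulates the helicase, was at 267, 261 and 343 CPM in chow against 191, 202 and 185 CPM in HFD. Its means were 290 ± 45.3 and 193 ± 8.81 CPM, a log2 difference of -0.58 (SE 0.14, adjusted p = 0.0104). Eif4h, a smaller relative of Eif4b with a similar role, was at 396, 385 and 699 CPM in chow against 298, 296 and 276 CPM in HFD. Its chow mean of 494 ± 178 CPM rests in part on chow replicate 3, yet the other chow values also lay above all HFD values (290 ± 12.1 CPM). The log2 difference was -0.71 (SE 0.21, adjusted p = 0.0295), and -0.43 without chow replicate 3 (adjusted p = 0.0154). The Eif4h call was lost without HFD replicate 1 (adjusted p = 0.0698), HFD replicate 2 (0.0734) or HFD replicate 3 (0.0871). Leaving out any 1 library did not end the calls of Eif4a2, Eif4b, Eif4ebp2 and Eif1a.

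Eif4a1, the sister helicase of Eif4a2, did not pass the test, at 106, 119 and 112 CPM in chow against 123, 150 and 125 CPM in HFD (log2 difference 0.23, interval -0.05 to 0.52, limma adjusted p = 0.178). Eif4a3, the helicase of the exon junction complex, was at 42.8 to 47.8 CPM in chow against 34.5 to 37.8 CPM in HFD, without overlap (log2 difference -0.32, adjusted p = 0.0795). The small nucleolar RNA gene Snora81 lies within Eif4a2 and is listed too, so reads over it could be given to either.

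Of the 3 cap-binding genes, Eif4e2 rose. It encodes 4EHP, which binds the cap but not the scaffold eIF4G and is known as a repressor of initiation. It was at 53.8, 61.0 and 47.2 CPM in chow against 66.7, 95.7 and 85 CPM in HFD. The diets did not overlap, with means of 54.0 ± 6.9 and 82.5 ± 14.6 CPM (SD, n = 3), a log2 difference of 0.59 (SE 0.16, limma adjusted p = 0.02). That call was lost without chow replicate 3 (adjusted p = 0.054), HFD replicate 2 (0.0791) or HFD replicate 3 (0.0734). Eif4e, the cap-binding protein of initiation, was at 58.1, 56.1 and 57.7 CPM in chow against 50.2, 58.5 and 52.0 CPM in HFD. Its values overlapped, and the interval of the log2 difference ran from -0.37 to 0.18. Eif4e3 differed by 0.02.

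The 3 scaffold genes missed the threshold as reported. Eif4g1, which joins cap-binding protein, helicase and eIF3, was at 838, 832 and 996 CPM in chow against 1090, 1003 and 1010 CPM in HFD. The diets did not overlap by a narrow margin (log2 difference 0.22, limma adjusted p = 0.233). Eif4g1 was called higher with equal totals (adjusted p = 0.0438), quantile normalization (0.0251) and identity gene scaling (0.00549). Eif4g2, a scaffold that lacks the eIF4E-binding region, was at 1872, 1951 and 2210 CPM in chow against 1641, 1808 and 1859 CPM in HFD (log2 difference -0.18, adjusted p = 0.369). Eif4g3 overlapped and differed by 0.12. Summed over the 11 cap-binding and helicase genes, the level was 4332, 4444 and 5358 CPM in chow against 4094, 4267 and 4188 CPM in HFD.

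**Figure D3:**
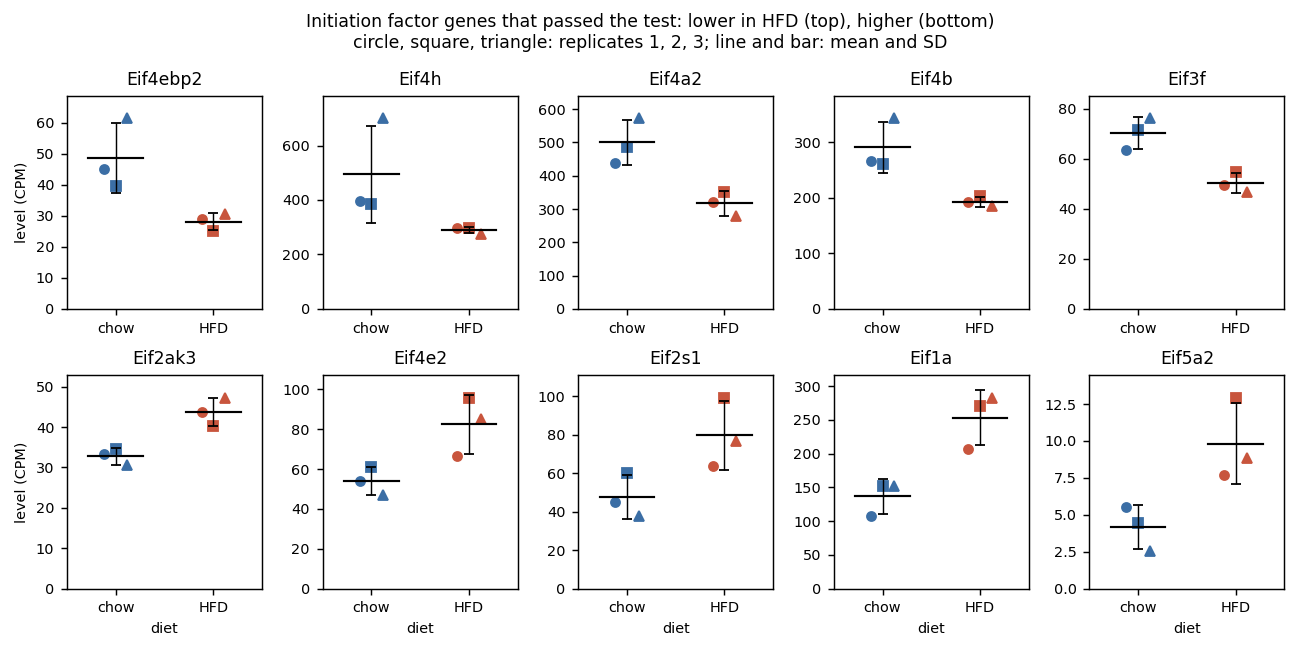
Level in CPM of each of the 10 called genes in each library (points), with the mean and SD of the 3 libraries per diet. The HFD points lie above all chow points for Eif1a, Eif5a2, Eif2s1, Eif4e2 and Eif2ak3 and below them for Eif4ebp2, Eif4h, Eif4a2, Eif4b and Eif3f.

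All 3 eIF4E-binding protein genes had lower means in HFD, and 1 passed the test. Eif4ebp2 encodes a binding protein that blocks eIF4E from the scaffold until mTORC1 phosphorylates it. It was at 44.9, 39.7 and 61.4 CPM in chow against 28.8, 25.1 and 30.5 CPM in HFD. The sets did not overlap, with means of 48.7 ± 11.3 and 28.1 ± 2.76 CPM (SD, n = 3), a log2 difference of -0.75 (SE 0.18, limma adjusted p = 0.0105). Eif4ebp1, a close relative with the same role, was at 197, 223 and 215 CPM in chow against 176, 195 and 153 CPM in HFD. It too did not overlap, by a narrow margin, and the log2 difference of -0.28 missed the threshold (SE 0.13, adjusted p = 0.126). Eif4enif1, which carries eIF4E into the nucleus, differed by -0.15. The sum of the 3 was 301 ± 17.9 CPM in chow against 239 ± 16.9 CPM in HFD (SD, n = 3).

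Among the 3 genes of subunit joining and later steps, Eif5a2 rose. Eif5a and Eif5a2 encode the protein that carries the modified residue hypusine and helps ribosomes through difficult sequences. Eif5a2 was at 5.50, 4.47 and 2.57 CPM in chow against 7.73, 12.9 and 8.82 CPM in HFD, or 128, 145 and 19 reads and 260, 413 and 347 reads. All HFD values lay above the chow values, with means of 4.18 ± 1.49 and 9.82 ± 2.73 CPM (SD, n = 3), a log2 difference of 1.08 (SE 0.28, limma adjusted p = 0.0154). That call was lost without HFD replicate 2 (adjusted p = 0.0656) and with quantile normalization (log2 difference 0.71, adjusted p = 0.0541). Eif5a, the main form, was at 249, 272 and 360 CPM in chow against 252, 278 and 249 CPM in HFD (log2 difference -0.16, interval -0.50 to 0.19). Eif6, which keeps the large subunit from joining too early, had means of 48.2 ± 3.25 and 47.5 ± 3.16 CPM, with an interval from -0.31 to 0.26.

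**Figure D4:**
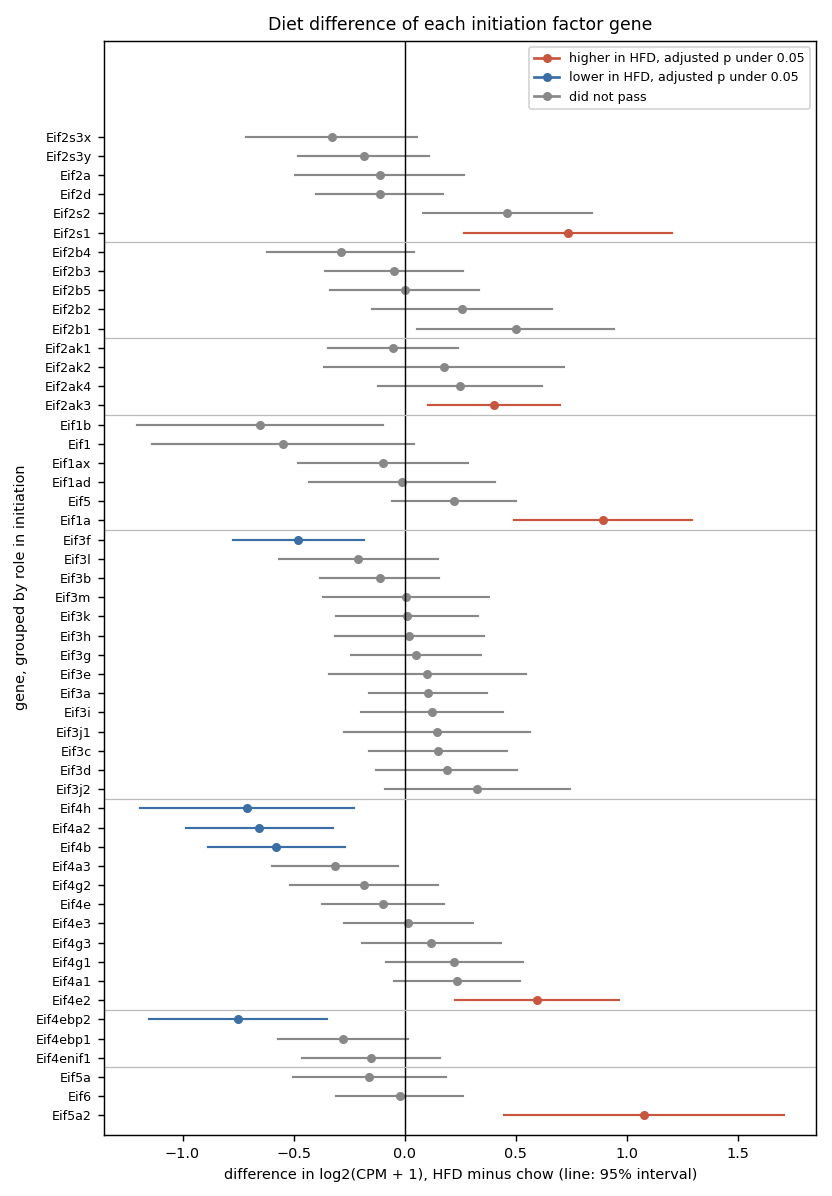
Difference in log2(CPM + 1), HFD minus chow (horizontal axis), with its 95% interval from limma for each of the 52 genes, grouped by role. The points run from -0.75 (Eif4ebp2) to 1.08 (Eif5a2), and most intervals include 0.

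The ratio of 2 genes within a library does not depend on how libraries were scaled, so related genes were also set against each other. Of 11 ratios compared, chosen after the values were seen, 5 did not overlap between diets. The log2 ratio of Eif1a to Eif1ax was 0.50, 0.88 and 0.59 in chow and 1.64, 1.47 and 1.85 in HFD. That of Eif4a1 to Eif4a2 was -2.05, -2.04 and -2.35 in chow and -1.38, -1.23 and -1.15 in HFD. That of Eif4e2 to Eif4e was -0.11, 0.12 and -0.29 in chow and 0.41, 0.71 and 0.71 in HFD. These 3 ratios shifted by 1.00, 0.89 and 0.70 toward the first-named gene. The ratio of Eif5a2 to Eif5a shifted by 1.43, and that of Eif2s1 to Eif2s3x by 1.08. Each of these 5 ratios holds a gene called above, so the shifts are not separate support for its change. They are given as a description. With 3 libraries per diet an exact permutation test cannot fall below p = 0.1, the value all 5 reached (adjusted p = 0.22). The other 6 ratios overlapped: Eif1 to Eif1b, Eif2s3x to Eif2s3y, Eif3j1 to Eif3j2, Eif4e3 to Eif4e, Eif4g1 to Eif4g3 and Eif4ebp1 to Eif4ebp2 shifted by -0.19 to 0.49.

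**Figure D5:**
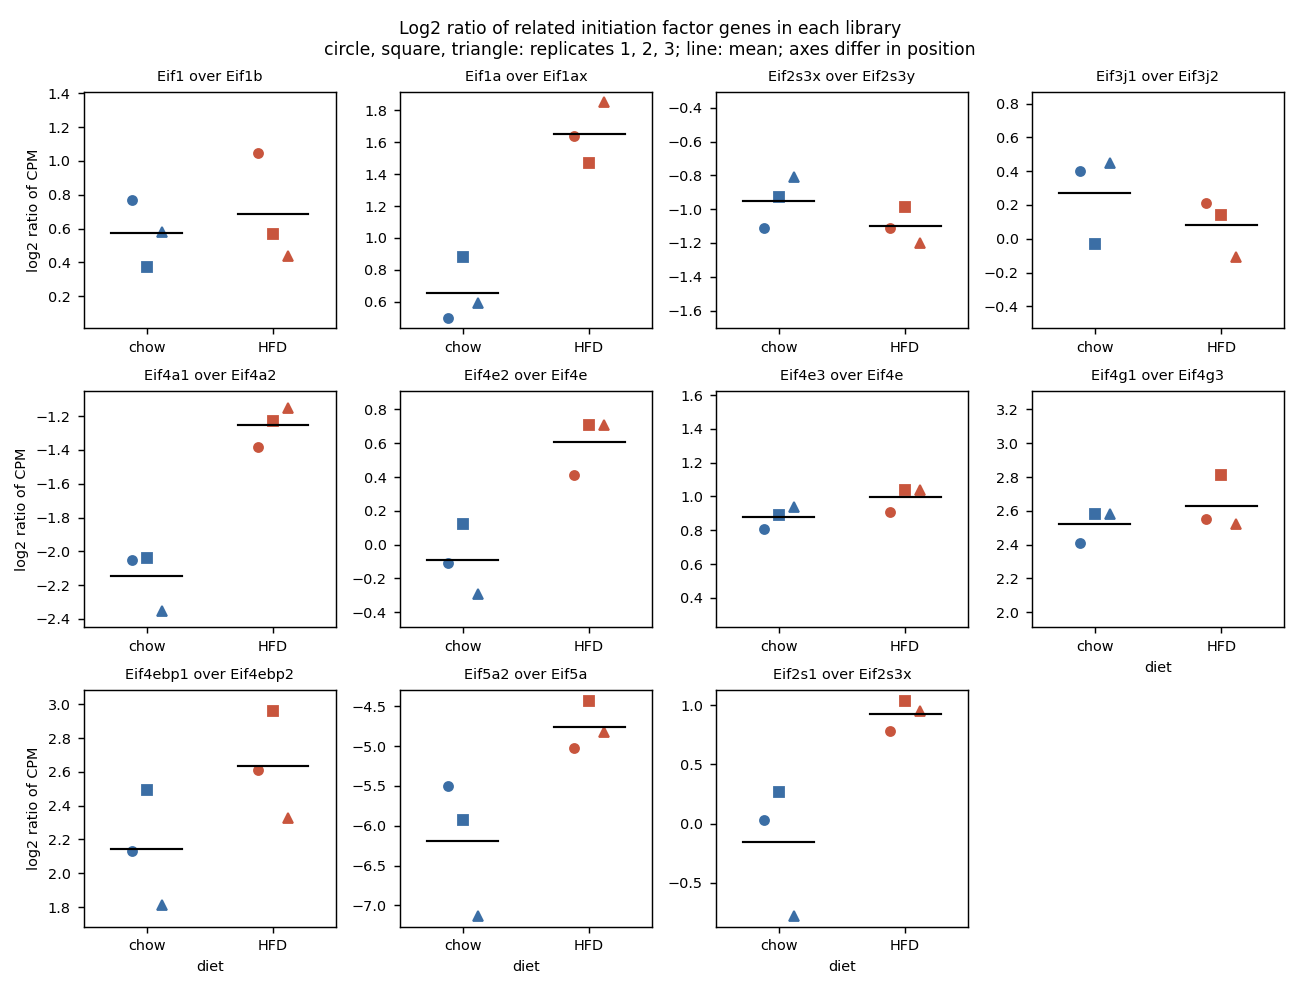
Log2 ratio of 2 related genes in each library (points), by diet, for the ratios compared. The 3 HFD points lie above the 3 chow points for Eif1a to Eif1ax, Eif4a1 to Eif4a2, Eif4e2 to Eif4e, Eif5a2 to Eif5a and Eif2s1 to Eif2s3x.

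The summed level of all 52 genes was 7556, 7949 and 8970 CPM in chow against 7363, 8106 and 7709 CPM in HFD, and the diets overlapped (8158 ± 730 and 7726 ± 372 CPM, SD, n = 3).

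Of the 22 tested initiation cofactors (of 23 on the list), 2 rose and 3 fell, with a median log2 difference of 0.05. The called share was 22.7%, against 35.1% of all genes tested. The kinases that phosphorylate eIF4E went apart. Mknk1 had 23.6 ± 2.13 CPM in chow against 34.1 ± 2.55 CPM in HFD (SD, n = 3, log2 difference 0.51, limma adjusted p = 0.0192). Mknk2 fell from 867, 671 and 1136 CPM to 648, 410 and 523 CPM (log2 difference -0.75, adjusted p = 0.0273). Abce1, which splits ribosomes for reuse, rose by 0.45 (adjusted p = 0.0232). Ctif, a partner of the nuclear cap-binding complex, and Bzw2, an eIF5 mimic, had log2 differences of -0.60 (adjusted p = 0.0237) and -0.44 (0.0364). All 5 calls were lost without HFD replicate 2 or HFD replicate 3 (adjusted p from 0.0546 to 0.106). Without chow replicate 3, Mknk2 (0.0752), Ctif (0.0522) and Bzw2 (0.0655) were lost, without chow replicate 1, Abce1 (0.0682) and Bzw2 (0.0756), and without HFD replicate 1 or with equal totals, Bzw2 (0.104 and 0.0934). Pabpc1, the poly(A)-binding protein, had a log2 difference of -0.54 (adjusted p = 0.0881) which passed without chow replicate 1 (-0.73, adjusted p = 0.0269) and was -0.29 without chow replicate 3. Pdcd4, an inhibitor of the helicase, had one of 0.22 (adjusted p = 0.396).

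On the mTORC1 axis, 2 of 23 tested genes (of 30) rose and none fell, with a median of 0.08. An unadjusted limma p under 0.05 was found for 4 of the 23, against 5304 of the 11643 genes tested. The called share was 8.70%, against 35.1% of all genes tested. Both risen genes encode inhibitors of mTORC1. Deptor rose from 315, 375 and 407 CPM to 588, 704 and 820 CPM (log2 difference 0.94, SE 0.16, limma adjusted p = 0.00211). Ddit4 rose from 12.5, 10.9 and 7.57 CPM to 23.4, 14.2 and 21.7 CPM (0.87, SE 0.24, adjusted p = 0.0194), and was lost without chow replicate 3 (0.0543), HFD replicate 1 (0.0737) or HFD replicate 3 (0.0758). Mtor itself had a difference of 0.16 (interval -0.20 to 0.52), and Rps6kb1, the S6 kinase, one of -0.003 (interval -0.28 to 0.28).

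Among the integrated stress response genes, which lie downstream of or act back on eIF2 phosphorylation, 5 of 19 tested (of 24) rose and 3 fell, with a median of 0.12. The called share was 42.1%, against 35.1% of all genes tested, and the difference was not tested. Atf4, the factor whose mRNA is favoured when eIF2 is phosphorylated, was at 69.6, 49.2 and 66.7 CPM in chow against 81.6, 99 and 105 CPM in HFD (log2 difference 0.62, limma adjusted p = 0.0172). The Atf4 call was lost without chow replicate 2 (0.0536), HFD replicate 2 (0.0599) or HFD replicate 3 (0.0741). Atf3 and Ddit3, stress transcription factors, rose by 2.54 (limma adjusted p = 0.000126) and 1.56 (0.000627). Atf3 was low in chow, at 1.21, 0.779 and 0.412 CPM against 10.9, 7.89 and 9.25 CPM in HFD. In chow replicate 3, 3 reads make 0.404 CPM. Of the 19 genes, 11 were not called. Slc3a2, an amino acid transporter chain, and the adaptor Nck1 rose by 0.63 each. Asns, asparagine synthetase and a known ATF4 target, went the other way, from 115, 109 and 87.4 CPM to 45.3, 46.5 and 50.9 CPM (log2 difference -1.10, adjusted p = 0.000407). Ppp1r15b, a subunit of the phosphatase that restores eIF2, had a log2 difference of -1.12 (adjusted p = 0.00175). Cebpg, a dimer partner of ATF4, had one of -0.48 (0.0313) and was lost without HFD replicate 1 (0.101), HFD replicate 2 (0.0679) or HFD replicate 3 (0.0739).

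Among elongation and termination genes, 4 of 17 tested (of 20) fell and none rose, with a median of -0.07. An unadjusted limma p under 0.05 was found for 6 of the 17, against 5304 of the 11643 genes tested. The 4 fallen genes are 23.5% of the list, while 35.1% of all genes tested were called. Eef2, which moves the ribosome along the mRNA, had 803, 798 and 729 CPM in HFD against 1060, 1168 and 1060 CPM in chow (log2 difference -0.50, limma adjusted p = 0.0154). Its kinase Eef2k had a difference of -0.59 (adjusted p = 0.0175), the GTPase Gtpbp1 one of -0.61 (0.00675), and Dhps, the enzyme that starts hypusine formation on eIF5A, one of -0.55 (0.0181). Leaving out HFD replicate 2 ended the calls of Eef2k (0.062) and Dhps (0.0516), HFD replicate 3 those of Eef2 (0.0798) and Dhps (0.0734), and chow replicate 2 or quantile normalization that of Eef2 (0.0547 and 0.0506). Eef1a1, which delivers charged tRNAs, had a difference of -0.31 (adjusted p = 0.109). With identity gene scaling, none of the 4 fallen genes was called, nor were Mknk2, Ctif, Bzw2 and Cebpg, while Asns and Ppp1r15b were still called lower and Mtor and Pdcd4 were called higher. Bzw2, Slc3a2, Nck1, Cebpg and Dhps lie outside the rule for named genes and were named after their values were seen.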

How the data were processed

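The deposited table holds 1 log2 CPM value per gene and RNA library (6 columns, 0 others), made by the authors, rounded to 2 decimals; the log2 scale was inferred from the numbers themselves. The build mm10 and the tools HISAT2, Picard, featureCounts and edgeR appear in the submitters' processing notes, with no roles or versions; the library kit named in the labels' protocols does not mark strand. The 7 chromatin samples were not analysed here. Values were turned back into CPM, and HFD was tested against chow on log2(CPM + 1) for the 11643 genes whose mean reached 1 CPM, by limma's two-sided moderated test with a trend (version 3.58.1, under R 4.3.3), adjusted by Benjamini-Hochberg over all genes tested at a threshold of 0.05; this scale understates changes of low genes. Intervals are 95%. Library sizes were read from the steps between low values, all of which (under 20 reads) were whole within 0.1 read; they cover counting error only.

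The members, role lists and pathway lists were chosen with earlier results of these data known. Named are the called members, the member with the largest absolute difference in each role list, a fixed set, and the 2 largest called rises and falls of each pathway list; a further part of the rule, the highest level per kilobase, was not applied because exon lengths were not used here. Eif5b, Eif4ebp3 and Eif4e1b were not analysed here. Of the 52 members, 24 overlap another gene's span in RefSeq, 11 of them a listed gene, and RefSeq names 11 Eif pseudogenes, so reads of overlapping genes and close copies are uncertain. The 16 alternatives were another pseudocount, the deposited log2 values, other filters, leaving out each library, a replicate block, 3 scalings, array weights and voom weights on recovered reads.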

Additional observations from a re-analysis of the deposited data

How the results depend on the processing

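Over 16 alternatives no called initiation factor gene changed sign, and Eif1a was called in all 16. Leaving out 1 library gave 1 to 5 genes higher and 3 to 6 lower (all genes: 1688 to 2101 higher, 1162 to 1740 lower). The higher count was 2 without chow replicate 3, 1 without HFD replicate 2 and 2 without HFD replicate 3; the lower count was 3 without HFD replicate 1 or HFD replicate 3. Identity gene scaling gave 14 higher and 0 lower (all genes 3886 and 378), and array weights 8 lower; the cause was not tested. Same-numbered libraries deviated together with r = 0.43, 0.23 and 0.09 over 11643 genes, and differently numbered ones with r from -0.39 to 0.15. Every library but chow replicate 3 correlated best with its own number, and chow replicate 3 did so with HFD replicate 2. The labels do not call the replicate numbers pairs, and the main test did not pair them. Whether same-numbered libraries share a batch was not tested. With the replicate block 7 initiation factor genes were higher and 6 lower (2594 and 2245 of all genes). It added the calls of Eif2s2 (adjusted p = 0.0344), Eif2b1 (0.0325) and Eif1b (0.0131), and of the cofactor Pabpc1 (0.0101). Array weights added Eif2s2, Eif3l, Eif4a3 and Eif4ebp1. Depth limits Eif5a2 most, with 19 reads in chow replicate 3.

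All sign changes were of genes not called, and none passed in the setting where it changed sign. With identity gene scaling these were Eif2s3x 0.11, Eif2s3y 0.26, Eif2a 0.33, Eif2d 0.32, Eif2b4 0.15, Eif2b3 0.39, Eif2b5 0.45, Eif2ak1 0.39, Eif1ax 0.35, Eif1ad 0.42, Eif3l 0.24, Eif3b 0.34, Eif4a3 0.12, Eif4g2 0.27, Eif4e 0.35, Eif4ebp1 0.17, Eif4enif1 0.29, Eif5a 0.29, Eif6 0.42, Eef1a1 0.14 and Rps6kb1 0.45. With equal totals these were Eif2b3 0.0598, Eif2b5 0.11, Eif2ak1 0.0566, Eif1ax 0.0113, Eif1ad 0.095, Eif4e 0.0111, Eif6 0.0862 and Rps6kb1 0.11. With quantile normalization these were Eif2b5 0.0713, Eif3m -0.000492 and Rps6kb1 0.0832. With array weights these were Eif2b5 0.0851, Eif2ak2 -0.0418, Eif1ad 0.0289, Eif3m -0.090, Eif3h -0.0198 and Eif3e -0.0592. With voom weights these were Eif2b5 0.0189, Eif1ad 0.0315 and Eif3m -0.0387. Leaving out 1 library, the values ran from -0.14 to 0.0147 for Eif2b3, -0.11 to 0.14 for Eif2b5, -0.13 to 0.00156 for Eif2ak1, -0.0186 to 0.46 for Eif2ak2, -0.24 to 0.0329 for Eif1ax, -0.19 to 0.12 for Eif1ad, -0.11 to 0.12 for Eif3m, -0.0964 to 0.0769 for Eif3k, -0.0771 to 0.13 for Eif3h, -0.0426 to 0.11 for Eif3g, -0.0608 to 0.25 for Eif3e, -0.0693 to 0.10 for Eif4e3, -0.0637 to 0.031 for Eif6 and -0.0845 to 0.0497 for Rps6kb1.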
